A study of Mus musculus with 13 samples.

Results

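Immediate early genes are the genes that a cell transcribes first when a signal reaches it. Their promoters are kept ready by factors that are already present, among them serum response factor (SRF) and CREB, which ERK and calcium signalling switch on, so that transcription starts without new protein synthesis and usually fades soon after. In brain tissue they are read as markers of recent activity of neurons, and endothelial cells, glia and leukocytes also induce them in response to growth factors and inflammatory signals. The 10 genes described here were chosen by their symbols, with earlier results of these data known. They are *Egr1*, *Egr2* and *Egr4*, zinc finger transcription factors; *Nr4a1*, an orphan nuclear receptor; *Arc*, a cytoskeleton-associated protein of synapses; *Npas4*, a transcription factor of neuronal activity; *Fos*, *Fosb* and *Junb*, subunits of the AP-1 transcription factor; and *Ier2*, a small nuclear protein. All 10 were among the 47643 genes listed in the count table, and all 10 were among the 17285 genes with enough reads to be tested.

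RNA was sequenced from isolated neurovasculature, a vessel-enriched fraction of brains that were not perfused, of 13 male CD1 mice aged 8 to 10 weeks. The 3 groups were sham-vehicle (n = 4, neither LPS nor CPD-4645, with PBS named in the series text), LPS-vehicle (n = 5) and LPS-CPD-4645 (n = 4). Lipopolysaccharide (LPS), a bacterial cell wall product that activates innate immunity, was injected intraperitoneally at 0, 6 and 24 h (3 mg/kg), and each of these injections was followed in the LPS-CPD-4645 mice by a subcutaneous dose of CPD-4645 (10 mg/kg), which blocks monoacylglycerol lipase (MAGL), an enzyme that hydrolyzes 2-AG. The paper also reports partial inhibition by CPD-4645 of the hydrolases ABHD6 and FAAH in brain. Tissue was taken at 28 h. No group received CPD-4645 without LPS, so an effect of the compound alone was not measured.

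Libraries held 7813559 to 55133373 counts. LPS-vehicle mouse 3 had the shallowest library and LPS-CPD-4645 mouse 1 the next. Levels are given in CPM, read counts of a gene relative to the TMM-scaled total of its library. Neuronal transcripts were abundant in this vessel-enriched material: per kilobase of exon, the 10 neuron markers averaged 178 CPM in sham-vehicle mice and the 8 endothelial cell markers 18.1 CPM. The paper, by RT-qPCR, describes a different balance, with low *Syp* (neurons) and *Aif1* (microglia) beside *Gfap*, *Pdgfrb* and *Pecam1*. The 3 groups include no whole brain, so enrichment over it was not measured. In bulk RNA, fewer cells of a type and less RNA per cell cannot be told apart, so the values below do not say which cells carried the transcripts. "Rose" and "fell" are used for an edgeR quasi-likelihood test whose p, after Benjamini-Hochberg adjustment over all genes tested, was at most 0.05, and "past the threshold" also asks for a change of at least 2-fold, the rule of the study.

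In outline, the 10 genes did not move as a block after LPS. *Egr1*, *Egr4*, *Arc* and *Npas4* fell, *Junb* and *Ier2* rose, and the tests of *Fos*, *Fosb*, *Egr2* and *Nr4a1* did not pass. With CPD-4645 added to LPS, *Npas4* fell again and no member rose. *Fos* fell in the edgeR test, but not in limma-voom or DESeq2, nor when any one of 8 of the 13 mice was left out. Each of the 6 genes that had risen or fallen after LPS was also changed in the same direction between LPS-CPD-4645 and sham-vehicle mice, a comparison that uses the same 4 sham mice.

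All 10 genes are protein coding, and positions are on GRCm38. *Fos* is at chr12:85473890-85477273 on the plus strand, *Fosb* at chr7:19302696-19310051 on the minus strand, *Junb* at chr8:84974484-84978718 on the minus strand, *Egr2* at chr10:67535475-67542188 on the plus strand and *Egr4* at chr6:85511121-85513589 on the minus strand. *Arc* is at chr15:74669083-74672570 on the minus strand, *Nr4a1* at chr15:101254269-101274795 on the plus strand, *Npas4* at chr19:4984355-4990316 on the minus strand and *Ier2* at chr8:84661331-84662852 on the minus strand. The coordinates of *Egr1* are not given here. *Junb* is the only member whose exons overlap another annotated gene: *Prdx2* (chr8:84969587-84974834), an abundant peroxiredoxin gene, runs on the opposite strand, and since the strand setting behind the counts is not given in the sources used here, part of the *Junb* value may come from *Prdx2*.

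The sequence before the start site of 6 members is shown because these genes differed in response while sharing a promoter element. Each line gives the 250 bases before a RefSeq transcription start in GRCm38.p6, 5′ to 3′ on the gene's strand, with the CRE half-site TGACG or its reverse complement CGTCA, the CArG box bound by SRF, and the TATA box TATAAA in capitals. For *Egr2*, which has 5 RefSeq starts, the third is shown.
Npas4 (chr19:4989972-4990221, minus strand): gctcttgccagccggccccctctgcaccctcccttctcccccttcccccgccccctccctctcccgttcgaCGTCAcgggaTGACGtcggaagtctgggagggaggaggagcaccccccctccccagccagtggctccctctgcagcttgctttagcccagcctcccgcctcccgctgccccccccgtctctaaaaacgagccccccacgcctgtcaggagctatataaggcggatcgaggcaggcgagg
Egr4 (chr6:85513590-85513839, minus strand): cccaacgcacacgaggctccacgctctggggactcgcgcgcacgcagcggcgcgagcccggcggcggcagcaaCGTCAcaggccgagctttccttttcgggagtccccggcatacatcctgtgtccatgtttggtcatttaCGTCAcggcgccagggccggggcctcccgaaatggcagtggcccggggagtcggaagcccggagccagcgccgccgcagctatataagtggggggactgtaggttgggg
Egr2 (chr10:67537619-67537868, plus strand): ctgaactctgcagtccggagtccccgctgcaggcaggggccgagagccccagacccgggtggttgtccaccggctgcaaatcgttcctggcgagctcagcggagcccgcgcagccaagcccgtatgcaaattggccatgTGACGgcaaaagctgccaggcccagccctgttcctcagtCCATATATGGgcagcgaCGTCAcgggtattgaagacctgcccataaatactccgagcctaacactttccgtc
Nr4a1 (chr15:101266596-101266845, plus strand): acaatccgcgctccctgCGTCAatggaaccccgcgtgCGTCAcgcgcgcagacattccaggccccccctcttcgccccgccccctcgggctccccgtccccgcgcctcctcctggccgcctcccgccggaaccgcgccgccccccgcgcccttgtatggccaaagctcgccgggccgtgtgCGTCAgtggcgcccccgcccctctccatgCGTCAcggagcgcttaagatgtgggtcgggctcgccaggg
Fos (chr12:85473640-85473889, plus strand): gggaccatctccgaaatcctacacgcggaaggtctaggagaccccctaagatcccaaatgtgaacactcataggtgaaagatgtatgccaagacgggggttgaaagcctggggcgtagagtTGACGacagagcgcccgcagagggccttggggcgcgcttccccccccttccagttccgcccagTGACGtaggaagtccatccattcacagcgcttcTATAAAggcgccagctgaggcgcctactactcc
Junb (chr8:84978749-84978998, minus strand): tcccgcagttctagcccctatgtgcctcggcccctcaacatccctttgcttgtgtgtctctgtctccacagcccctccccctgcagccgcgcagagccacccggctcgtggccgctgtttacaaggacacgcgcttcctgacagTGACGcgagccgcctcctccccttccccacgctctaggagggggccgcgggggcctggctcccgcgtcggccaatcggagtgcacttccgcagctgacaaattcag

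**Figure D1:**
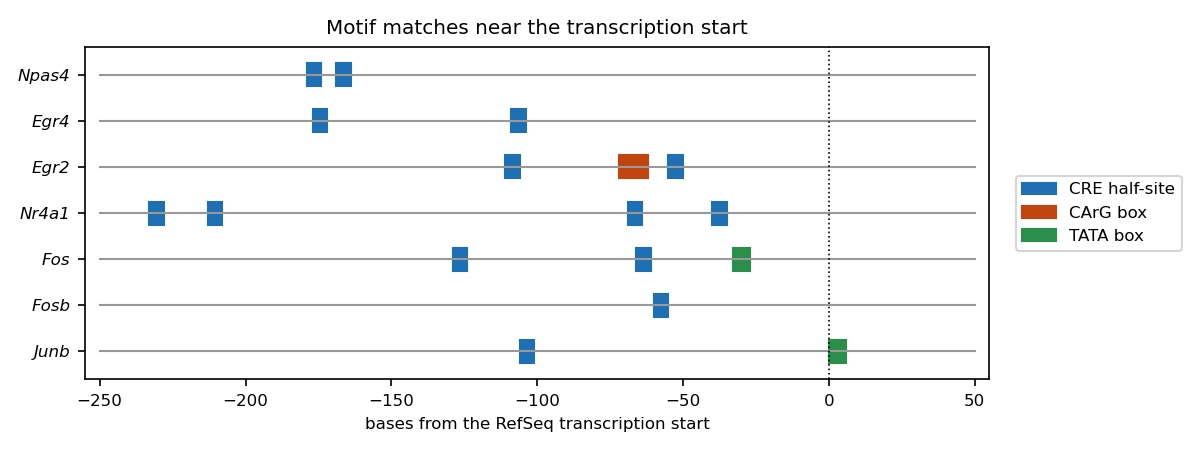
Positions of 3 motifs in windows from 250 bases before to 50 bases after a RefSeq start for the 7 members with a window, in bases from the start (dotted line); boxes mark the CRE half-site, the CArG box and the TATA box on either strand. Each of the 7 windows holds a CRE half-site, *Nr4a1* the most with 4.

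A CRE half-site, the core of the element that CREB binds, was found on either strand within 250 bases before and 50 bases after the start in 7 of the 7 members that have a window in the table used, against 23.0% of 27025 genes. *Npas4* had one at 179 to 175 and one at 169 to 165 bases before its start, and *Fos* had one at 129 to 125 and one at 66 to 62 bases before. For *Egr2* it was in the windows of 3 of its 5 starts. The full palindromic CRE, in which TGACG is followed directly by TCA, was in 0 of 7 windows and in 2.03% of genes. A CArG box was found in *Egr2*, at 72 to 63 bases before the start shown and in windows of 3 of its other starts, and in 1.81% of genes. The AP-1 site TGANTCA was in none of the 7 and in 8.97% of genes, an NF-kB site was in *Fos*, *Fosb*, *Egr4* and *Nr4a1* and in 5.14% of genes, and an EGR site (GCG, then G or T, then GGGCG) was in *Fosb* and *Nr4a1* and in 3.93% of genes. The half-site is contained in the full CRE and the motifs were searched on both strands. *Arc*, *Egr1* and *Ier2* have no entry in the table. The letters describe these windows only: members with the half-site include *Npas4*, which fell after LPS, and *Junb*, which rose.

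Per kilobase of exon, which allows levels of different genes to be set side by side, *Egr1* was the most abundant member in sham-vehicle mice at 59.2 CPM per kb. *Junb* followed at 24.9, *Arc* at 16.6, *Nr4a1* at 13.1, *Egr4* at 11.8, *Ier2* at 11.6 and *Fos* at 10.4 CPM per kb, and *Npas4* (3.15), *Fosb* (1.71) and *Egr2* (0.988) were low. In LPS-vehicle mice the order had changed at its head, with *Junb* at 49.7, *Egr1* at 24.98, *Ier2* at 20.4 and *Fos* at 14.2 CPM per kb. In LPS-CPD-4645 mice *Junb* (43.7), *Ier2* (24.8) and *Egr1* (19.9) led, and *Npas4* (0.718) and *Egr2* (0.203) were the least abundant. Neighbours between *Arc* and *Fos* in the sham order lay within the spread between mice: *Nr4a1*, *Egr4*, *Ier2* and *Fos* differed per kilobase by less than the SD of *Fos* among the 4 sham mice.

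**Figure D2:**
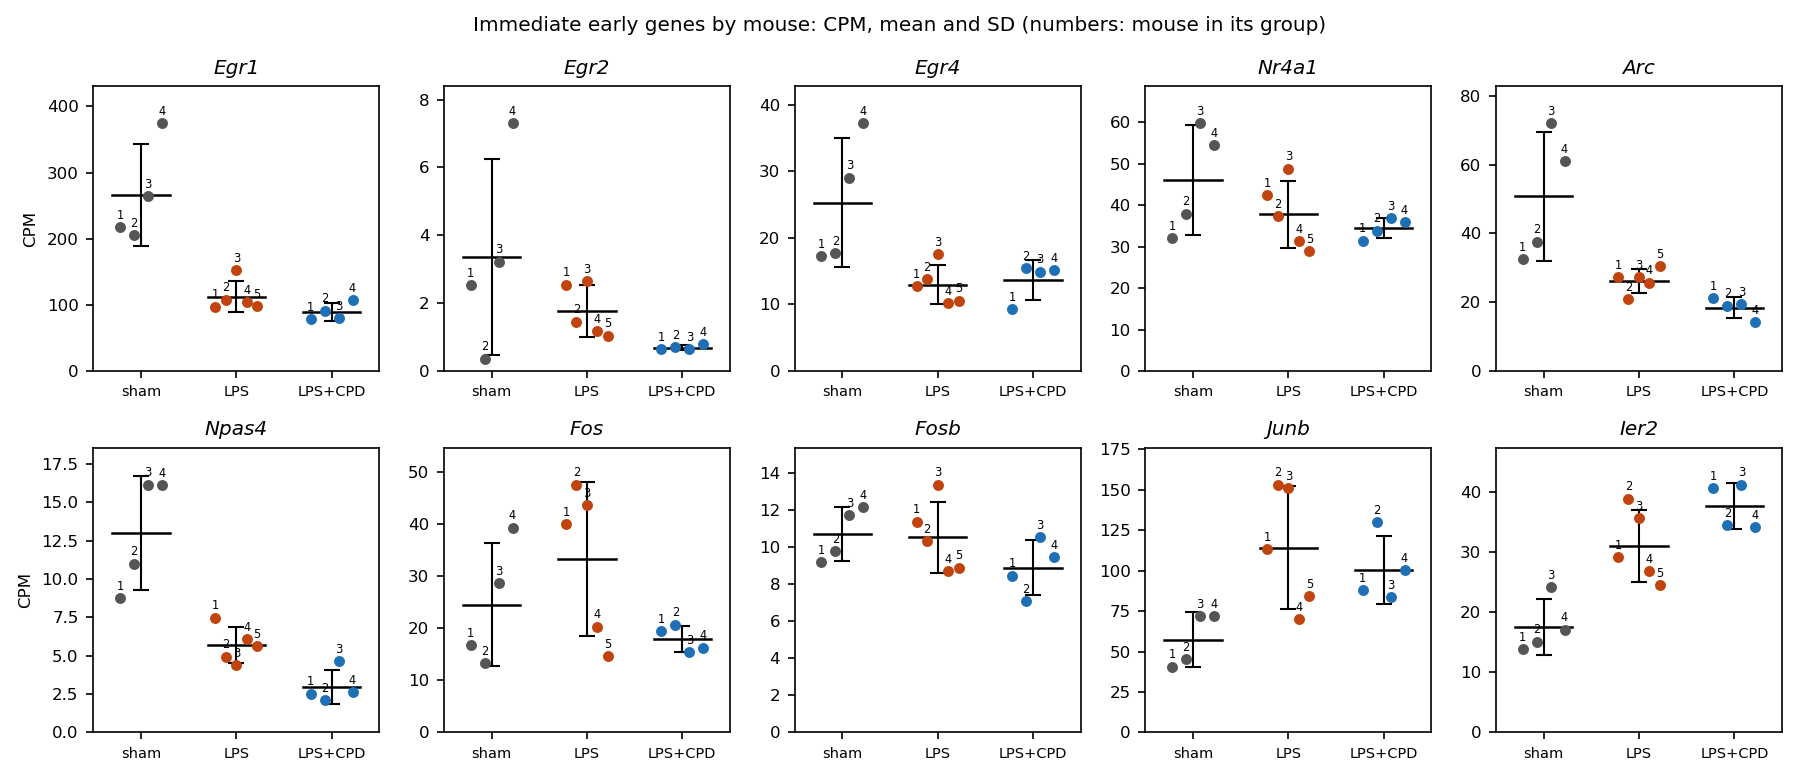
CPM of each member in each mouse (points, numbered by mouse within its group), with the group mean (long bar) and SD (capped bar), each panel starting at 0; LPS+CPD stands for LPS-CPD-4645. *Egr1*, *Arc* and *Npas4* have every LPS-vehicle mouse below every sham-vehicle mouse, *Ier2* has every LPS-vehicle mouse above, and sham mice 3 and 4 lie above sham mice 1 and 2 in all 10 panels. How many of all tested genes share that split of the sham mice was not counted.

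The first comparison, LPS-vehicle against sham-vehicle, asks what repeated LPS did. None of the 10 members passed the threshold upward, where 4.68% of all tested genes did, and 2, *Egr1* and *Npas4*, passed it downward, where 0.995% did. By adjusted p alone, 2 members rose (*Junb*, *Ier2*; 11.1% of all genes rose) and 4 fell (*Egr1*, *Egr4*, *Arc*, *Npas4*; 8.86% of all genes fell). At an unadjusted p of 0.05 the same numbers, 2 and 4, were reached in the edgeR test. Of all 17285 genes tested, 2914 were higher and 2654 lower at that p. DESeq2 and limma-voom also put 0 members past the threshold upward. The median log2 fold change was -0.62 over the 10 members and -0.00067 over all genes tested. All LPS-vehicle values lay above all sham values in 1 member and 1673 of 17285 genes, and below them in 3 members and 1458 genes. Without the shallowest libraries 0 members passed upward and 3 downward, *Egr4* being the additional one at a log2 fold change of -1.09.

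Among the EGR factors, *Egr1*, which neurons and vessel cells induce through SRF, had the smallest adjusted p among the members. It stood at 218, 205, 264 and 375 CPM in the 4 sham mice and at 97.3, 108, 153, 104 and 97.6 CPM in the 5 LPS-vehicle mice. All sham values were above all LPS values. The means were 266 CPM ± 77.1 (SD, n = 4) and 112 CPM ± 23.3 (SD, n = 5), a 2.38-fold lower level after LPS (log2 fold change -1.25, SE 0.16, edgeR adjusted p = 2.05e-05). *Egr4*, a neuronal member of the family, was at 17.2, 17.7, 29.0 and 37.2 CPM in sham mice and at 12.7, 13.7, 17.5, 10.2 and 10.6 CPM in LPS-vehicle mice. The groups overlapped, LPS-vehicle mouse 3 being above sham mouse 1, and the fall of 1.97-fold (log2 -0.98, SE 0.22, adjusted p = 0.00407) was just short of 2-fold. Its log2 value went past -1 without sham mouse 1 (-1.13), sham mouse 2 (-1.12), LPS-vehicle mouse 2 (-1.0118) or LPS-vehicle mouse 3 (-1.09).

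*Egr2*, best known for its part in myelination and in lymphocytes, was rare and uneven. The sham mice had 2.54, 0.362, 3.23 and 7.30 CPM and the LPS-vehicle mice 2.54, 1.45, 2.65, 1.18 and 1.04 CPM. The sham mice alone spanned the whole LPS range and more, and the log2 fold change of -0.96 (SE 0.51) had an adjusted p of 0.21. Single mice moved this value: it was -1.33 without sham mouse 2 (edgeR adjusted p = 0.0206) and -0.25 without sham mouse 4 (edgeR adjusted p = 0.806), and in limma-voom it was -0.50 (adjusted p = 0.572). *Nr4a1*, the nuclear receptor also called Nur77, ranged from 32.1 to 59.8 CPM in sham mice and from 28.9 to 48.9 CPM in LPS-vehicle mice. Its log2 fold change of -0.30 (95% interval -0.65 to 0.06, adjusted p = 0.238) did not pass the test.

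Of the synaptic and activity genes, *Arc*, whose product acts in receptor trafficking at synapses, was at 32.6, 37.6, 72.0 and 60.9 CPM in sham mice and at 27.3, 20.8, 27.2, 25.7 and 30.4 CPM in LPS-vehicle mice. Every LPS mouse lay below every sham mouse. *Arc* fell 1.93-fold (log2 -0.95, SE 0.19, adjusted p = 0.00152), and the log2 value went past -1 without sham mouse 1 (-1.12), sham mouse 2 (-1.07) or LPS-vehicle mouse 5 (-1.0115). *Npas4*, which is induced by calcium entry in neurons, was at 8.75, 11.01, 16.2 and 16.1 CPM in sham mice and at 7.48, 4.95, 4.41, 6.10 and 5.63 CPM in LPS-vehicle mice. The groups did not overlap, and *Npas4* fell 2.25-fold (log2 -1.17, SE 0.24, adjusted p = 0.00164).

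Of the AP-1 subunits, *Junb* passed the test and *Fos* and *Fosb* did not. *Junb*, a partner of the FOS proteins that is also induced by cytokines, was at 40.6, 45.1, 72.0 and 71.7 CPM in sham mice and at 113, 153, 151, 69.8 and 84.3 CPM in LPS-vehicle mice. Only LPS-vehicle mouse 4 lay within the sham range. *Junb* rose 1.99-fold (log2 0.99, SE 0.22, adjusted p = 0.00418), next to the 2-fold limit, and exceeded it without sham mouse 3 (log2 1.12), sham mouse 4 (1.11), LPS-vehicle mouse 4 (1.13) or LPS-vehicle mouse 5 (1.08). *Fos* was at 16.8, 13.4, 28.7 and 39.4 CPM in sham mice and at 40.1, 47.7, 43.7, 20.4 and 14.7 CPM in LPS-vehicle mice. LPS-vehicle mice 1, 2 and 3 were above every sham mouse, while mice 4 and 5 lay among the sham mice, and the log2 fold change of 0.44 (95% interval -0.23 to 1.0952, adjusted p = 0.377) did not pass the test. *Fosb* ranged from 9.18 to 12.1 CPM in sham mice and from 8.68 to 13.4 CPM in LPS-vehicle mice, with a log2 fold change of -0.04 (95% interval -0.38 to 0.31, adjusted p = 0.908).

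*Ier2*, a nuclear protein induced by growth factors and serum, was at 13.9, 15.1, 24.2 and 17.1 CPM in sham mice and at 29.2, 39.0, 35.8, 26.9 and 24.6 CPM in LPS-vehicle mice. Every LPS mouse was above every sham mouse, the closest being LPS-vehicle mouse 5 and sham mouse 3. *Ier2* rose 1.76-fold (log2 0.82, SE 0.16, adjusted p = 0.00137), and without sham mouse 3 the log2 value was 1.0132.

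Marker genes of several cell types also differed between these groups. The summed CPM of the 10 neuron markers was 10450 to 11960 in sham mice and 8888 to 9699 in LPS-vehicle mice, 9 of the 10 had a log2 fold change below 0, 3 of them fell, 0 passed the threshold, and their median log2 fold change was -0.25. When the libraries were scaled to that marker sum in place of TMM, the median of all genes moved from -0.00067 to 0.24. On that scale *Egr1* was at -0.9986, *Egr4* at -0.72, *Arc* at -0.70 and *Npas4* at -0.91, with edgeR adjusted p from 9.20e-06 to 0.0129, and none of the 4 was past the 2-fold limit. *Junb* (1.23) and *Ier2* (1.06) were past it, and *Fosb* changed sign to 0.21. The 8 neutrophil markers summed to 1.23 to 5.59 CPM in sham mice and 66.5 to 281 CPM in LPS-vehicle mice, with 8 of 8 past the threshold upward, and the monocyte and macrophage markers to 9.12 to 14.7 and 21.9 to 75.6 CPM. LPS-vehicle mice 1, 2 and 3, in which *Fos* and *Junb* were highest, had neutrophil sums of 83.8, 281 and 110 CPM, and mice 4 and 5 had 66.5 and 67.2 CPM. The 6 oligodendrocyte markers had a median log2 fold change of -0.71, with 4 that fell and 1 that rose (range -1.01 to 1.24), and the 4 tested erythrocyte markers had one of -0.895 and 4 fell. The 8 endothelial cell markers summed to 238 to 399.8 CPM in sham mice and 302 to 638 CPM in LPS-vehicle mice, with 4 that rose and 1 that fell (log2 -1.49 to 1.17), and of the 8 pericyte and smooth muscle markers 4 fell, 3 of them past the threshold, and 1 rose (median -0.16). The 5 choroid plexus markers summed to 336 to 712 CPM in sham mice and 166 to 372 CPM in LPS-vehicle mice, with 5 of 5 below 0 and 2 past the threshold downward. The 7 astrocyte markers summed to 1348 to 1705 CPM in sham mice and 1709 to 2237 CPM in LPS-vehicle mice, and 2 rose, 1 of them past the threshold (median 0.10). Of 6 microglia markers 2 fell, 1 of them past the threshold (median -0.31). The mitochondrial share of counts was 6.47% to 12.7% in sham mice and 4.84% to 7.04% in LPS-vehicle mice. The part of these cell types and of that share in the values of the members was not tested.

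**Figure D3:**
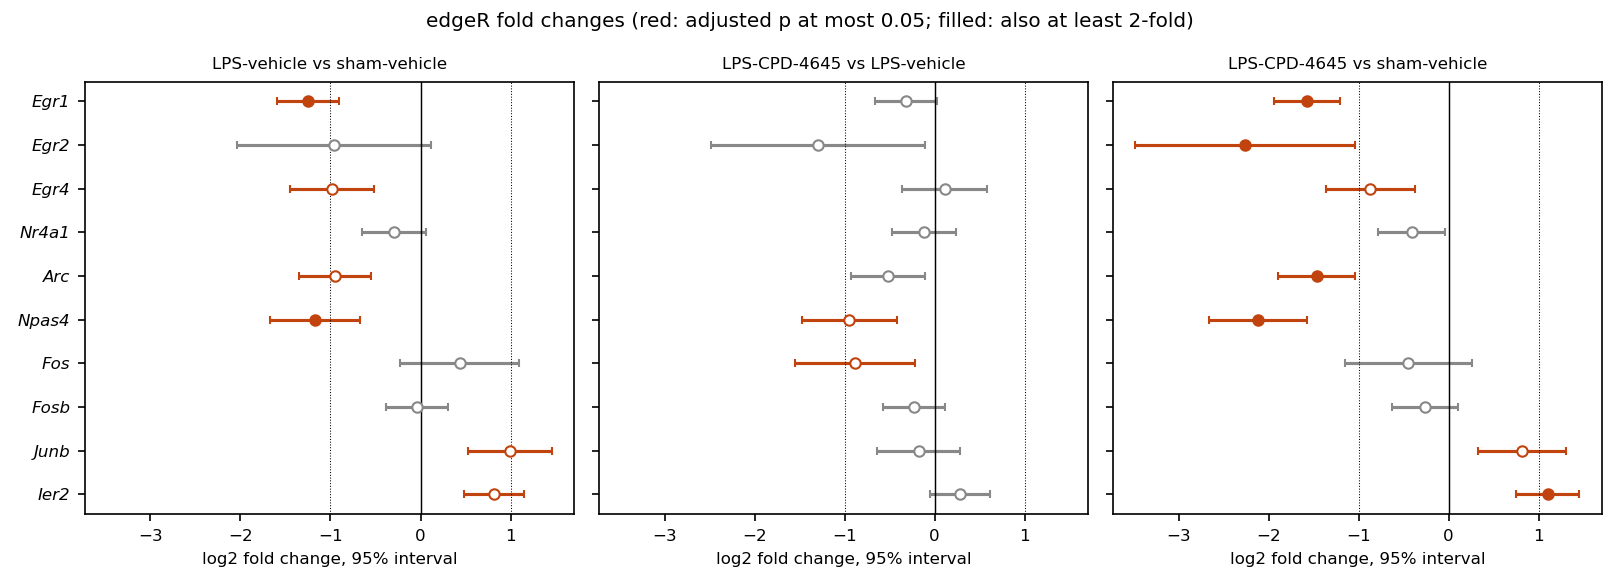
Log2 fold change with its 95% interval for each member in the 3 comparisons from the edgeR fit of 13 mice; red marks an adjusted p of at most 0.05, filled points also at least 2-fold, and dotted lines mark 2-fold. *Egr1*, *Arc* and *Npas4* lie left of 0 in both comparisons with sham-vehicle and *Junb* and *Ier2* right of it, and in the middle panel *Npas4* and *Fos* are the red points.

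The second comparison, LPS-CPD-4645 against LPS-vehicle, asks what CPD-4645 changed on top of LPS. No member passed the threshold in the edgeR test in either direction, where 1.70% of all tested genes passed it upward and 4.20% downward. By adjusted p alone 0 of 10 members rose (14.1% of all genes) and 2 fell, *Npas4* and *Fos* (16.4% of all genes), a share of members close to that of all genes. At an unadjusted p of 0.05, 0 members were higher and 4 lower, the others being *Egr2* and *Arc*. Of all 17285 genes tested, 3349 were higher and 3798 lower at that p. DESeq2 put 0 past the threshold upward and 1, *Egr2*, downward, and limma-voom put none past it. The median log2 fold change was -0.28 over the members and -0.02 over all genes, and 8 of 10 members and 9029 of 17285 genes were below 0. All values with CPD-4645 lay below all LPS-vehicle values in 1 member and 2070 genes, and above them in 0 members and 1913 genes. Leaving out the shallowest libraries gave 0 and 0 members past the threshold.

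*Npas4* was at 2.53, 2.10, 4.63 and 2.63 CPM with CPD-4645. Only LPS-CPD-4645 mouse 3 reached into the range of the LPS-vehicle mice, whose lowest value was 4.41 CPM. The means were 2.97 CPM ± 1.13 (SD, n = 4) and 5.71 CPM ± 1.18 (SD, n = 5), and *Npas4* fell 1.93-fold (log2 -0.95, SE 0.25, adjusted p = 0.0089). The log2 value passed -1 without LPS-CPD-4645 mouse 3 (-1.25), or without mouse 2 (-1.002) or 3 (-1.0102) of the LPS-vehicle group.

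*Fos* was at 19.4, 20.7, 15.5 and 16.3 CPM with CPD-4645. All 4 values lay below those of LPS-vehicle mice 1, 2 and 3 and 3 of them lay between those of mice 5 and 4, the remaining one just above. The log2 fold change was -0.88 (SE 0.32, adjusted p = 0.0464), and it was -1.02 without LPS-vehicle mouse 4 and -1.08 without mouse 5. The adjusted p of *Fos* was above 0.05 when sham mouse 3 (0.0562), LPS-vehicle mouse 1 (0.098), 2 (0.115) or 3 (0.0883), or any one of the LPS-CPD-4645 mice (0.0684 to 0.114) was left out. It was also above 0.05 in limma-voom (log2 -0.71, adjusted p = 0.142) and in DESeq2 (log2 -0.88, adjusted p = 0.0751). In an edgeR fit of only the groups compared (0.0304) and in edgeR without a filter on low counts (0.0105) it was at most 0.05. The other AP-1 subunits did not pass: *Junb* at 88.0, 130, 83.7 and 101 CPM (log2 -0.18, 95% interval -0.64 to 0.28) and *Fosb* at 7.06 to 10.53 CPM (log2 -0.23, 95% interval -0.58 to 0.12).

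*Egr2* was low and even with CPD-4645, at 0.632, 0.699, 0.640 and 0.784 CPM, every one below the lowest LPS-vehicle mouse. Its log2 fold change of -1.30 (SE 0.57) had an edgeR adjusted p of 0.0932. It passed the threshold in DESeq2 (-1.32, adjusted p = 0.043), in an edgeR fit of only the groups compared (-1.30, adjusted p = 0.0254) and without sham mouse 2 (-1.29, adjusted p = 0.021). Counts of *Egr2* were few in all libraries, between 8 and 148.

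The remaining members did not pass the edgeR test of all 3 groups. *Egr1* was at 78.2, 90.9, 79.8 and 107 CPM (log2 -0.32, 95% interval -0.67 to 0.02, adjusted p = 0.15), with the groups overlapping. *Arc* was at 21.2, 19.0, 19.5 and 14.1 CPM (log2 -0.51, SE 0.20, adjusted p = 0.0561), and only LPS-CPD-4645 mouse 1 reached into the LPS-vehicle range. The adjusted p of *Arc* was at most 0.05 without sham mouse 1 (0.0311), 2 (0.0494) or 3 (0.0372) or LPS-vehicle mouse 2 (0.0355). It was also at most 0.05 in DESeq2 (log2 -0.50, adjusted p = 0.0301), in an edgeR fit of only the groups compared (0.0156) and without a filter on low counts (0.0253), but not in limma-voom (-0.51, adjusted p = 0.107). *Egr4* at 9.25, 15.5, 14.9 and 15.1 CPM (log2 0.11, 95% interval -0.36 to 0.59), *Nr4a1* at 31.5 to 36.9 CPM (log2 -0.12, 95% interval -0.47 to 0.24) and *Ier2* at 40.8, 34.6, 41.3 and 34.2 CPM (log2 0.28, 95% interval -0.05 to 0.61) had intervals that include 0. Without the shallowest libraries *Nr4a1* was at 0.02. The neuron marker sum was 9417 to 11810 CPM in these mice, with a median log2 fold change of 0.11 against LPS-vehicle. With the libraries scaled to that sum, the median of all genes was -0.14, *Npas4* was at -1.07 (adjusted p = 0.00523), *Fos* at -0.98, *Arc* at -0.62 and *Egr1* at -0.45 with adjusted p of at most 0.0306, and *Egr4* changed sign to -0.01. Of 8 endothelial cell markers, which summed to 329 to 435.0 CPM, 7 were below 0 and 4 fell, 1 of them past the threshold (median log2 -0.53). Of 6 microglia markers 5 were below 0 and 3 fell, 1 past the threshold (median -0.54), and of 5 tested monocyte and macrophage markers 5 were below 0 and 1 fell, past the threshold (median -1.04). Of 6 oligodendrocyte markers 2 rose and 1 fell, the latter past the threshold (median 0.18). Of 8 pericyte and smooth muscle markers 1 fell past the threshold (median 0.03), and of 5 choroid plexus markers 1 passed it upward (median -0.14). The neutrophil sum was 7.30 to 27.5 CPM with CPD-4645 and lower than in each LPS-vehicle mouse, and the part of these cell types in the *Npas4* and *Fos* differences was not tested.

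The third comparison, LPS-CPD-4645 against sham-vehicle, asks how far the treated mice stood from the baseline. Here 1 member, *Ier2*, passed the threshold upward (6.11% of all tested genes did) and 4, *Egr1*, *Egr2*, *Arc* and *Npas4*, passed it downward (4.99% did). By adjusted p alone 2 rose, *Ier2* and *Junb* (19.5% of all genes), and 5 fell, the 4 named and *Egr4* (19.3%). The median log2 fold change was -0.66 over the members and -0.01 over all genes. All treated values lay above all sham values in 2 members and 3234 of 17285 genes, and below them in 4 members and 3250 genes. Leaving out the shallowest libraries gave the same counts past the threshold, 1 and 4. With scaling to the neuron marker sum the median of all genes was 0.11, and 1 and 4 members were past the threshold. Markers of other cell types differed here too: of 6 microglia markers 6 were below 0 and 5 fell, 2 of them past the threshold (median log2 -0.72), of 8 pericyte and smooth muscle markers 5 fell and 1 rose (median -0.52), and of 8 neutrophil markers 3 passed the threshold upward (median 1.94). Their part in the members' values was not tested.

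*Npas4* was 4.34-fold lower than in sham mice (log2 -2.12, SE 0.26, adjusted p = 7.78e-06), with its highest treated mouse at 4.63 CPM and its lowest sham mouse at 8.75 CPM. *Egr1* was 2.98-fold lower (log2 -1.57, SE 0.17, adjusted p = 2.59e-06) and *Arc* 2.76-fold lower (log2 -1.47, SE 0.20, adjusted p = 2.72e-05), both without overlap between groups. *Egr2* was 4.79-fold lower (log2 -2.26, SE 0.58, adjusted p = 0.00542), yet sham mouse 2, at 0.362 CPM, was below all 4 treated mice, and in limma-voom the value was -1.57 with an adjusted p of 0.139. *Egr4* fell 1.83-fold (log2 -0.87, SE 0.23, adjusted p = 0.00707) without overlap, and without sham mouse 1 its log2 value was -1.02.

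*Ier2* was 2.15-fold above sham (log2 1.1009, SE 0.17, adjusted p = 6.34e-05), with means of 37.7 CPM ± 3.84 (SD, n = 4) and 17.6 CPM ± 4.61 (SD, n = 4) and no overlap. *Junb* was 1.76-fold above sham (log2 0.81, SE 0.23, adjusted p = 0.0105), again without overlap. *Fos* (log2 -0.45, adjusted p = 0.311), *Fosb* (log2 -0.27, adjusted p = 0.24) and *Nr4a1* (log2 -0.41, adjusted p = 0.0748) did not pass the test. *Nr4a1* did in edgeR without sham mouse 1 (-0.55, adjusted p = 0.0174) and without a filter on low counts (-0.42, adjusted p = 0.0419). For *Fos* the treated mice, at 15.5 to 20.7 CPM, lay within the range of the sham mice.

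Within a group the members differed from mouse to mouse, some of them together. Over the 13 mice, the deviations from the group mean of pairs of members had a Pearson r from -0.03 (*Junb* and *Npas4*) to 0.86 (*Fos* and *Junb*), a description of libraries that share depth and composition. *Npas4* was at 0.13 with *Fos* and 0.03 with *Egr1*, and *Arc* at 0.28 to 0.31 with *Fos*, *Fosb*, *Junb* and *Egr1*. Other pairs of these genes were higher: *Arc* and *Npas4* were at 0.56, *Arc* and *Nr4a1* at 0.56, *Npas4* and *Fosb* at 0.49 and *Npas4* and *Nr4a1* at 0.45. In sham-vehicle mice, mice 3 and 4 were above mice 1 and 2 in 10 of 10 members. Mouse 1 was the lowest in 7 members and mouse 2 in 3, and mice 3 and 4 were each the highest in 5. In LPS-vehicle mice, mice 1, 2 and 3 were above mice 4 and 5 in 7 of 10 members, the exceptions being *Egr1*, *Arc* and *Npas4*. In LPS-CPD-4645 mice the mean deviation over the members was small, from -0.09 to 0.07 on the log2 scale. These splits were seen in the values, so they describe the mice and carry no test. They were counted over the members only, so the share of all genes with the same splits is not known. The mitochondrial share of counts was 8.91% and 12.7% in sham mice 3 and 4 and 8.92% and 6.47% in mice 1 and 2, and the neuron marker sum was 10880 and 11960 CPM against 10530 and 10450 CPM. The erythrocyte marker sum was 484.0 and 467 CPM in mice 3 and 4 and 957 and 737 CPM in mice 1 and 2, and the endothelial marker sum was 330.0 and 238 CPM against 399.8 and 346 CPM. Whether these values bear on the members was not tested. The labels give no cage, day or batch that would separate these mice.

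**Figure D4:**
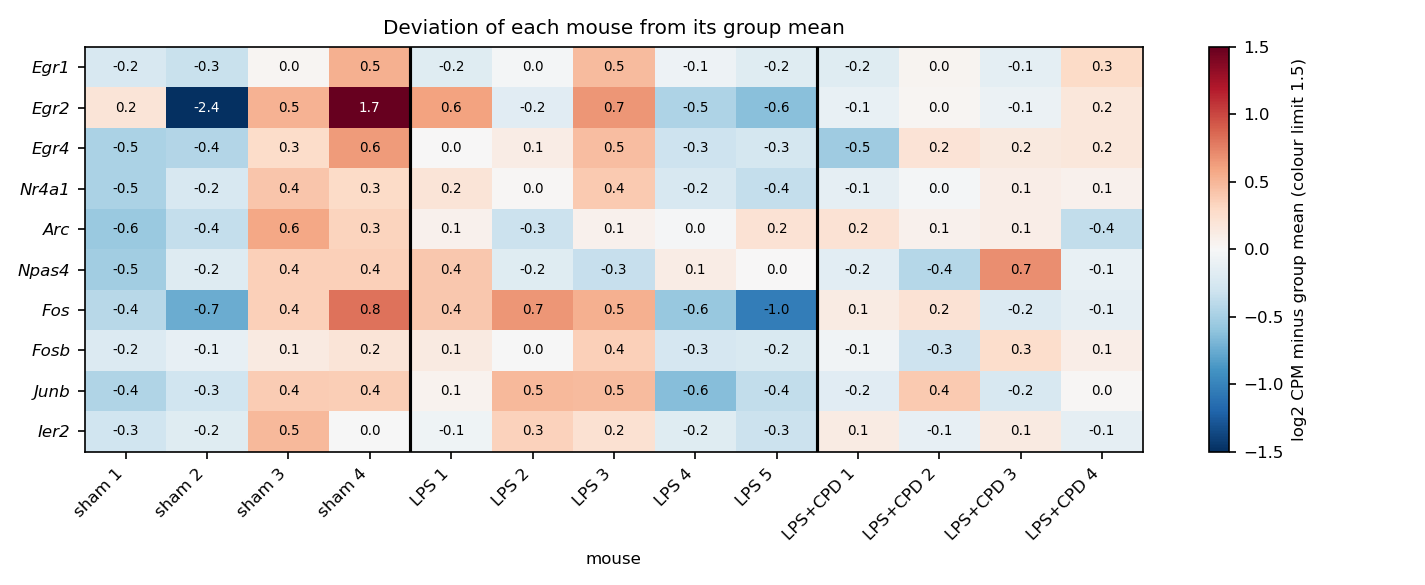
Log2 CPM of each member in each mouse minus the mean of its group (colour, limited at 1.5; the number in each cell is the value; LPS+CPD stands for LPS-CPD-4645). Sham mice 3 and 4 are at or above their group mean for nearly every member. Most cells of the LPS+CPD columns are pale, *Npas4* in mouse 3 and *Egr4* in mouse 1 being the farthest from the mean.

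The spread among mice differed by group and member. The SD of log2 CPM was lowest in LPS-CPD-4645 mice for 6 of 10 members and highest in sham mice for 6 of 10. The median SD over the members was 0.43 in sham mice, 0.30 after LPS and 0.23 with LPS and the compound. *Fos* had an SD of 0.71 in sham mice, 0.76 after LPS and 0.20 with the compound, and *Egr2* of 1.73, 0.60 and 0.13. The other 4 members went against this: the SD was lowest after LPS for *Egr4* (0.31, and 0.36 with the compound), *Arc* (0.20 and 0.26) and *Npas4* (0.29 and 0.48), and lowest in sham mice for *Fosb* (0.20, and 0.24 with the compound). The spreads were not tested against each other.

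Outside all lists, the genes whose deviations from the group mean followed the average deviation of the members most closely over the 13 libraries were *Pom121*, *Atg10*, *Dok2*, *Fam222b*, *Usp49* and *Tgfbrap1*, picked as the highest among 14708 genes averaging 1 CPM or more. They had a Pearson r of 0.86, 0.86, 0.86, 0.86, 0.84 and 0.84 in that order, with Spearman rho from 0.80 for *Atg10* to 0.91 for *Dok2*. As maxima of many genes these values carry no p, and the libraries share their depth and composition with the members.

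Other genes of the early response, induced genes and 11 upstream factors among them, give the setting. The list held 62 genes outside the 10, of which 61 were tested. It was chosen with earlier results of these data known, so its shares describe the list and carry no test. After LPS 14 of the 61 were past the threshold upward (23.0%, against 4.68% of all genes) and 1 downward (1.64%, against 0.995%). By adjusted p alone 30 rose (49.2%, against 11.1%) and 12 fell (19.7%, against 8.86%). Of 8 relatives of FOS and JUN, 5 were past the threshold upward: *Fosl1* (log2 3.63), *Maff* (3.54), *Batf* (2.87), *Atf3* (2.49) and *Mafk* (1.12), all transcription factors of the basic leucine zipper type. *Fosl1* went from 0.21 CPM ± 0.11 (SD, n = 4) to 2.74 CPM ± 1.91 (SD, n = 5) and *Maff* from 1.56 CPM ± 0.85 to 18.8 CPM ± 6.58. *Fosl2* rose by 0.77 and *Jun* by 0.49 on the log2 scale, and *Jund* was at -0.12 (adjusted p = 0.55). The median over these 8 was 1.80, while *Fos* itself was at 0.44.

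Among the paralogs of the EGR and NR4A members, *Egr3* was past the threshold downward (log2 -1.20, adjusted p = 0.0274). It was the 1 gene of the list past it, and without sham mouse 3 or without sham mouse 4 that number was 0. *Nr4a2* fell by 0.63 (adjusted p = 0.00479) and *Nr4a3* by 0.95 (adjusted p = 0.000327) on the log2 scale, whereas the EGR corepressors *Nab1* (-0.10) and *Nab2* (0.00) did not pass the test. Of 7 tested activity genes of neurons, 7 had a log2 fold change below 0 and 6 fell, among them *Bdnf* (-0.96), a neuronal growth factor, and *Homer1* (-0.90), a synaptic scaffold. None of these 7 passed the 2-fold limit. The median log2 fold change over them was -0.71, against -0.25 over the 10 neuron markers.

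Genes that limit the early response rose with LPS in part. Of 13 feedback regulators, 3 were past the threshold upward: *Zfp36* (log2 2.49), whose product destabilizes early response mRNAs, the ERK phosphatase gene *Dusp2* (1.79) and *Trib1* (1.66). *Dusp1*, a phosphatase of p38 and JNK, rose by 0.79 (adjusted p = 0.000204), and *Dusp4*, another phosphatase of MAP kinases, fell by 0.75 (adjusted p = 0.0299). Of 17 other early genes, 6 were past the threshold upward: *Ier3* (2.03), *Myc* (1.86), *Ccn1* (1.67), *Gadd45g* (1.61), *Csrnp1* (1.37) and *Klf2* (1.28). *Ier5* (-0.36) and *Klf10* (-0.57) fell. Of 11 upstream factors, 0 passed the threshold in edgeR and 4 rose by adjusted p alone. At an unadjusted p of 0.05, 5 were higher, as were 2914 of all 17285 genes tested. *Srf* was at 0.01 (adjusted p = 0.956) and *Creb1* at -0.16 (adjusted p = 0.336).

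With CPD-4645 added to LPS, 1 of the 61 genes passed the threshold (1.64% upward, against 1.70% of all genes, and 0 downward, against 4.20%). This was *Per1*, a clock gene that is also induced by CREB and by glucocorticoids. It stood at 89.7 CPM ± 8.93 (SD, n = 5) with LPS alone and at 228 CPM ± 20.5 (SD, n = 4) with the compound (log2 1.35, SE 0.09, adjusted p = 1.38e-07). By adjusted p alone 6 rose (9.84%, against 14.1% of all genes) and 8 fell (13.1%, against 16.4%). *Nr4a2* fell by 0.66 on the log2 scale (adjusted p = 0.00336), and *Gadd45b* rose by 0.84 (adjusted p = 0.00145). Of the 8 relatives of FOS and JUN, *Mafk* rose by 0.70 on the log2 scale (adjusted p = 0.000332) and the other 7 did not pass the test. *Fosl1* was at -0.50 (adjusted p = 0.44), *Fosl2* at -0.27 (adjusted p = 0.214), *Maff* at 0.07 (adjusted p = 0.873) and *Zfp36* at 0.26 (adjusted p = 0.427).

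Between LPS-CPD-4645 and sham-vehicle mice 15 of the 61 were past the threshold upward (24.6%, against 6.11% of all genes) and 3 downward (4.92%, close to the 4.99% of all genes). The 3 were *Nr4a2* (log2 -1.29), *Nr4a3* (-1.24) and *Bdnf* (-1.22). Upward stood the relatives of FOS and JUN *Maff* (3.61), *Fosl1* (3.14), *Atf3* (2.72), *Batf* (2.19) and *Mafk* (1.82), the feedback genes *Zfp36* (2.75) and *Dusp2* (2.06), and 8 other early genes: *Ccn1* (2.30), *Per1* (2.07), *Ier3* (1.83), *Csrnp1* (1.73), *Gadd45b* (1.496), *Myc* (1.49), *Gadd45g* (1.09) and *Klf2* (1.04). The median log2 fold change of the 61 was 0.39 here, 0.25 after LPS alone and 0.04 for the compound on top of LPS.

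**Figure D5:**
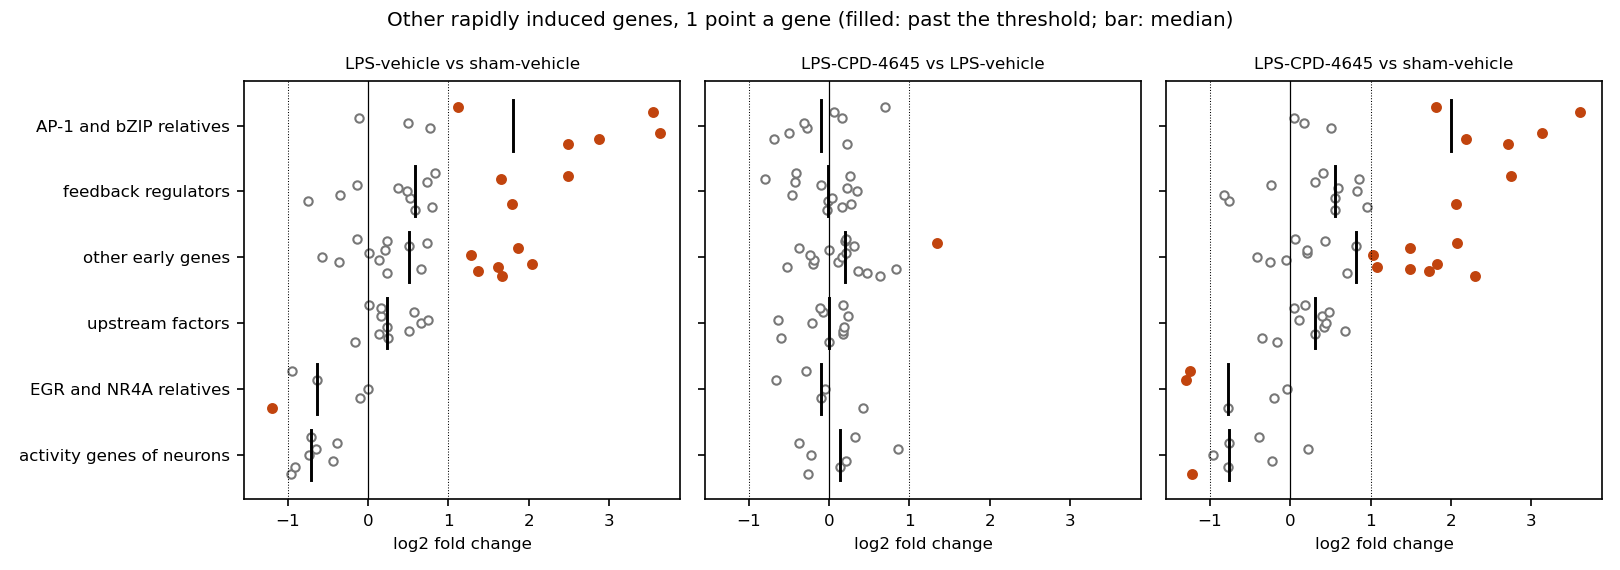
Log2 fold changes of 61 other genes of the early response, 11 of them upstream factors, by class in the 3 comparisons (1 point a gene, filled where past the threshold, bar at the median, dotted lines at 2-fold). Relatives of AP-1 lie to the right in both comparisons with sham-vehicle, EGR and NR4A relatives and activity genes of neurons mostly to the left, and *Per1* is the only filled point in the middle panel.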

How the data were processed

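Neurovascular RNA of 13 mice was sequenced as 75-base single-end reads. Per the labels and the methods, the authors converted the runs with bcl2fastq 2.15.0.4, aligned reads to GRCm38 with STAR 2.5.2a and counted them per gene against GENCODE M9 (basic set). The deposited values are whole-number counts without normalization. The strand column used is not given in the sources used here. The delay between LPS and CPD-4645 is given as 30 min in the methods and differently elsewhere in the study.

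Groups and replicate numbers came from the sample labels. Gene identifiers were matched to GENCODE M21 (47224 of 47643). Counts were fitted with edgeR 4.0.16 in R 4.3.3 (TMM, filterByExpr at its count minimum of 10 and total minimum of 15, all 3 groups in 1 quasi-likelihood fit, no covariates, Benjamini-Hochberg adjustment over 17285 genes). The threshold was the study's, an adjusted p of at most 0.05 and at least 2-fold. Log2 CPM used a prior count of 2, and 95% intervals came from the fit. CPM per kb divides by the exon length in GENCODE M21. Limma-voom (limma 3.58.1), the study's own test, and DESeq2 1.42.0 were alternatives, beside other scalings and filters, adjusted p alone, a replicate block and each mouse left out. The fit was tested on simulated data. A count of 3 was taken as the floor, 0.0538 to 0.378 CPM depending on the library, and the members' counts were above it in all libraries. Intervals cover these mice only. Promoter windows were RefSeq's on GRCm38.p6, 32851 windows in all, searched with Python 3.11.15.

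The 10 members were given by symbol, and the wider lists and markers were written from general knowledge. Members and lists were chosen with earlier results of these data known. Named genes are all members, every wider gene past the threshold, fixed paralogs and regulators of the members, and the 6 genes most like the members, and *Fosl2*, *Jun*, *Jund*, *Srf*, *Dusp1*, *Zfp36* and *Homer1* were named whatever their values. *Nab1*, *Nab2*, *Creb1*, *Dusp4*, *Ier5*, *Klf10* and the comparison of *Gadd45b* with CPD-4645 were added after their values were seen.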

Additional observations from a re-analysis of the deposited data

Results flagged for a closer look

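With 30 groups of 4 or 5 mice examined for a single mouse far from the rest (Dixon's ratio of gap to range on log2 CPM), 2 stood out, close to the 1 in 20 that chance gives. *Egr1* was highest in LPS-vehicle mouse 3 at 152.8 CPM, while the other 4 LPS-vehicle mice lay between 97.26 and 107.9 CPM (ratio 0.770). *Egr4* was lowest in LPS-CPD-4645 mouse 1 at 9.245 CPM, while the other 3 lay between 14.9 and 15.45 CPM (ratio 0.929). These mice are the ones with the shallowest libraries, 7813559 and 12548404 counts.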

How the results depend on the processing

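No member's change past the threshold reversed under any alternative. Of 657 member values computed under alternatives, 625 kept their call, 29 gained it and 3 lost it. The values that lost it were *Egr2* between LPS-CPD-4645 and sham in limma-voom (-1.57, adjusted p = 0.139) and, with scaling to the neuron marker sum, an alternative chosen after seeing the data, *Egr1* (-0.9986) and *Npas4* (-0.91) after LPS. Most gains were of genes next to the 2-fold limit. By adjusted p alone, after LPS 2 members, 30 wider genes and 1915 genes in all rose and 4, 12 and 1531 fell. For the compound on top of LPS, 6 wider genes and 2432 genes rose and 2 members, 8 wider genes and 2841 genes fell. Against sham, 2 members, 30 wider genes and 3375 genes rose and 5 members, 11 wider genes and 3342 genes fell. DESeq2, and a fit of only the groups compared, each put 1 member past the threshold downward for the compound on top of LPS. A mean count of at least 50, which tests fewer genes, gave 113 genes downward after LPS and 123 upward for the compound. The cause was not tested.

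Replicate numbers did not pair the mice: deviations of same-numbered mice correlated between -0.03 and 0.11. With the replicate number as a block and LPS-vehicle mouse 5 left out, 1 member passed upward after LPS (*Junb*, 1.07) and 2 downward for the compound (*Fos*, -1.08; *Npas4*, -1.03).

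Leaving out each mouse in turn gave 0 to 2 members past the threshold upward and 2 to 5 downward after LPS, with 0 to 3 wider genes downward, and 0 to 1 members downward for the compound. *Egr2* had 8 to 148 counts, and its log2 value ranged from -1.33 to -0.25 after LPS and from -2.62 to -1.55 against sham. The fall of *Fos* with the compound (adjusted p = 0.0464) was at 0.142 in limma-voom and 0.0751 in DESeq2. Signs without a passing test changed for *Fosb* after LPS, *Nr4a1* for the compound without the shallowest libraries and *Egr4* for the compound with neuron scaling. The p-values measure the spread between these mice only.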
